A study of Rattus norvegicus with 6 samples.

Results

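miR-451 and miR-144, listed as rno-miR-451 and rno-miR-144 on the array, are the 2 microRNAs (miRNAs) of an erythroid cluster, cut from 1 primary transcript of red cell precursors. They were taken by name from a rat miRNA array. They are 2 of the 677 rat miRNAs on the array and are read by 4 of its 1644 probes, or 40 of the 13540 miRNA spots of each array. Plasma RNA of 6 male Wistar rats was measured, with 1 array per animal. The 3 vehicle rats received 0.9% saline into the peritoneum, and the 3 thioacetamide rats received 100 mg/kg thioacetamide dissolved in the same saline by the same route. Thioacetamide injures the liver after its enzymes turn it into a reactive form, and plasma was taken 24 h after dosing. Every animal was decapitated under terminal anaesthesia, and 125 µl of each plasma was extracted. The age of the rats and any measure of haemolysis are not given in the sources used here. The rats weighed between 393 and 428 g at the start, and the labels number the replicates 1 to 3 in each group. Vehicle 1 to 3 went from 426, 404 and 393 g to 430, 407 and 397 g, a gain in each. Thioacetamide 1 to 3 went from 420, 413 and 428 g to 402, 394 and 408 g, a loss in each.

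Transcription of the cluster is driven by GATA1 in erythroid precursors, and miR-451 is among the most abundant miRNAs of red cells. Its hairpin is too short for Dicer and is cut by Argonaute 2, while miR-144 is made by Dicer in the usual way. miR-451 represses Ywhaz, which encodes the signalling adaptor 14-3-3 zeta, and miR-144 represses Nfe2l2, which encodes the oxidative stress factor NRF2. Red cells that burst release miR-451 into plasma, so it is commonly read as a sign of haemolysis.

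The mature sequences are shown because the members differ in length and in base composition as well as in seed, the stretch from base 2 to base 8 that pairs with target RNAs. They are the RefSeq sequences, placed on the plus strand of rat chromosome 10 in the assembly GRCr8, with the seed in capitals. rno-miR-451-5p lies at chr10:63459585-63459606 and rno-miR-144-3p at chr10:63459446-63459465.
rno-miR-451-5p: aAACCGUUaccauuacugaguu
rno-miR-144-3p: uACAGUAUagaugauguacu
miR-451 is 22 bases long with a GC content of 36.4%, and miR-144 is 20 bases long with a GC content of 30%. The median GC content of the 693 rat mature miRNA names in the RefSeq table is 47.8%, and 2.02% of them are at or below the GC content of miR-144. None of the other names shares the seed of either member. The 2 names rno-miR-101a-3p and rno-miR-101b-3p share bases 2 to 7 with miR-144.

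The hairpins show how close the members lie in the transcript. Mir144 spans chr10:63459397-63459479 and Mir451a spans chr10:63459569-63459640, both on the plus strand, with 89 bases between them. Capitals mark the mature arm that the array names as miR-144 or miR-451.
Mir144: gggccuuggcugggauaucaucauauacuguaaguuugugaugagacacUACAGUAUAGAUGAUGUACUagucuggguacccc
Mir451a: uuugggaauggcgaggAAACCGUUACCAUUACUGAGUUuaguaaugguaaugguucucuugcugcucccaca
The cluster covers 244 bases of the gene table between Flot2, 13585 bases upstream, and Eral1, 133 bases downstream. The mature miR-451 takes up bases 17 to 38 of its 72-base hairpin and so runs through what would be the loop of a canonical precursor. The mature miR-144 takes up bases 50 to 69 of its 83-base hairpin, on the 3′ arm.

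Each member is read by a pair of DNA probes that differ by 1 base, and the array's own sequences are shown because the signals of the pair are compared. They are the reverse complement of the mature miRNA, with the base that only the longer probe has in capitals.
miR-451, 20-base probe: aactcagtaatggtaacggt
miR-451, 21-base probe: aactcagtaatggtaacggtT
miR-144, 18-base probe: agtacatcatctatactg
miR-144, 19-base probe: agtacatcatctatactgT
The miR-451 probes cover bases 3 to 22 and 2 to 22 of the miRNA, and the miR-144 probes cover bases 3 to 20 and 2 to 20. Each probe was printed as 10 spots on every array. A spot's value is the background-subtracted intensity on a linear scale, and a miRNA's signal is the sum of its probes' mean intensities.

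Of the 677 miRNAs, 578 were well above background on no array, and the 59 detected on at least 3 arrays were tested. miR-451 is 1 of these 59 and miR-144 is not. The arrays differed in noise by their place on the slide. The scanner software's additive error, in intensity units, was 27.5, 31.0 and 87.3 on vehicle 2, vehicle 3 and thioacetamide 1, in columns 1 and 2 of the slide. It was 3.74, 8.23 and 9.38 on vehicle 1, thioacetamide 2 and thioacetamide 3, in columns 3 and 4. The additive error was marked as out of range on every array of columns 1 and 2. On the arrays of columns 3 and 4 it was marked as in range. The arrays of columns 1 and 2 had 16 to 27 detected miRNAs and the others 62 to 83. Each side held arrays of both groups, so values are also given within each side. The number of arrays limits the precision. With 1 array per animal, the p-values rest on differences between arrays and cannot separate animal from array differences.

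miR-451 was well above background on all 6 arrays. That call held for all 116 spots left after outlier marks, and none was saturated. Its unscaled signal was 8265, 6428 and 4257 in vehicle 1 to 3. In thioacetamide 1 to 3 it was 8665, 2317 and 3544. The groups overlapped, with the highest value of all 6 arrays and the lowest value both in thioacetamide rats. The mean signal was 6317 ± 2006 (SD, n = 3) in the vehicle group and 4842 ± 3367 (SD, n = 3) in the thioacetamide group. On the log2 scale the unscaled difference, thioacetamide minus vehicle, was -0.56 (exact two-sided permutation p = 0.5). With 3 against 3 arrays the smallest p that this test allows is 0.1. The adjusted p of the unscaled difference was 0.598 by limma.

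Within the slide sides the unscaled difference ran in opposite directions. In columns 1 and 2 the single thioacetamide array was 1.66-fold of the mean of 2 vehicle arrays, a log2 difference of 0.73. In columns 3 and 4 the 2 thioacetamide arrays were at 0.347-fold of the single vehicle array, a log2 difference of -1.53. With the slide side as a block in limma, the unscaled difference was -0.40 ± 0.56 (SE), with an adjusted p of 0.624. The unscaled signal thus showed no change in a single direction. In plasma a difference in the number of red cells or red cell fragments and one in the miR-451 of each cannot be told apart.

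The individual spots show how far the arrays lay apart beside the scatter within an array. The coefficient of variation of the spots of 1 probe on 1 array lay between 3.38% and 25.9%. The 20-base probe gave 38.7%, 42.7% and 39.2% of the signal of the 21-base probe in vehicle 1 to 3. The corresponding values were 39.9%, 40.4% and 42.2% in thioacetamide 1 to 3. The shorter probe was thus dimmer on every array, and the ratio of the pair did not separate the groups.

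**Figure D1:**
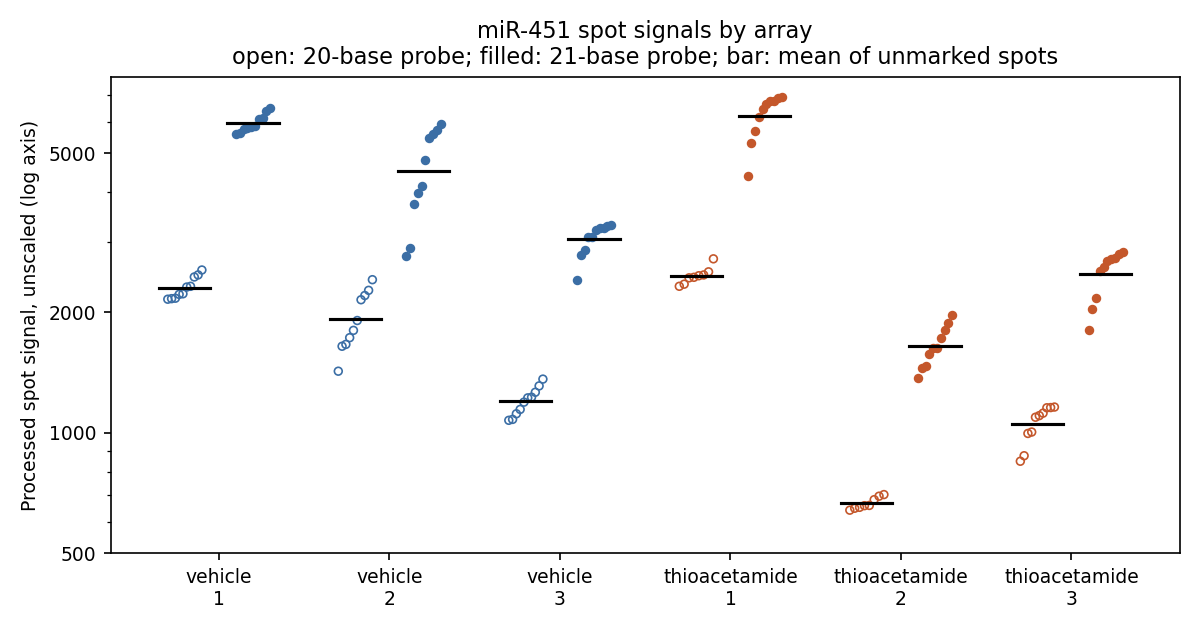
Unscaled intensity (log axis) of each unmarked spot of the 20-base and 21-base miR-451 probes on each of the 6 arrays, coloured by treatment. Thioacetamide 1 and vehicle 1 held the brightest spots and thioacetamide 2 the dimmest, and the 20-base probe lay at 38.7% to 42.7% of the 21-base probe throughout.

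To compare miRNAs between arrays, each array was divided by a scale factor, the 75th percentile of the 12 probes that every array detected. These belong to 8 miRNAs. Both miR-451 probes, 2 probes of miR-16 and 1 probe each of miR-25 and miR-92a are among the 12. The miRNAs of these probes are on the red cell list used below. The vehicle arrays had factors of 0.936, 0.776 and 0.626, and the thioacetamide arrays had factors of 2.27, 0.775 and 1.25. After scaling, miR-451 stood at 8832, 8284 and 6802 in the vehicle rats. In the thioacetamide rats it stood at 3811, 2988 and 2839. Every thioacetamide array was then below every vehicle array. The log2 level was 12.95 ± 0.20 (SD, n = 3) in the vehicle group and 11.64 ± 0.23 (SD, n = 3) in the thioacetamide group.

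The scaled level of miR-451 fell by 1.31 ± 0.34 (SE) on the log2 scale, which is 2.49-fold, with an adjusted p of 0.0427 by limma. Its 95% interval ran from -2.13 to -0.50. miR-451 was the only miRNA called lower among the 59 tested, where 1.69% were called lower and 15.3% higher. The arrays of columns 1 and 2 differed by -0.98 and those of columns 3 and 4 by -1.60, and the difference was -1.29 (adjusted p = 0.0454) with the side as a block. The 20-base probe gave a scaled difference of -1.30 and the 21-base probe one of -1.32. The call was lost under 14 of 28 alternative settings. Among them were no scaling (adjusted p = 0.598), spike-in scaling (0.619) and the percentile over all probes (0.673), and the setting with no filter on detection. The 14 include the settings that left out vehicle 1, vehicle 2, thioacetamide 2 or thioacetamide 3 (adjusted p of 0.0647, 0.122, 0.0744 and 0.103). The difference was over 1.5 times as large without vehicle 3 (-2.20, adjusted p = 0.0297) and without thioacetamide 1 (-2.03, adjusted p = 0.00578). Without the probes of the 2 members in the scaling set it was -1.83, with an adjusted p of 0.0194. Without the probes of the whole red cell list it was -1.54 (adjusted p = 0.0374 by limma).

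The share of the array's signal depends on no scaling set. miR-451 made up 44.7%, 30.5% and 30.9% of the summed signal of the 59 tested miRNAs in vehicle 1 to 3. It made up 12.4%, 4.45% and 3.95% in thioacetamide 1 to 3. The groups did not overlap, and miR-451 was the brightest miRNA of every vehicle array and had rank 3, 5 and 5 on thioacetamide 1 to 3. The mean share was 35.4% ± 8.09 (SD, n = 3) against 6.94% ± 4.75 (SD, n = 3), a difference of -28.4 percentage points (exact two-sided permutation p = 0.1). Within the sides the difference was -18.3 points in columns 1 and 2 and -40.5 points in columns 3 and 4. In the same measure, 32.2% of the 59 miRNAs had thioacetamide shares that all lay below the vehicle shares, and 18.6% had shares that all lay above.

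The total against which the share is taken moved with the treatment. The summed signal of the 59 miRNAs was 18484, 21081 and 13769 in vehicle 1 to 3 and 69786, 52019 and 89697 in thioacetamide 1 to 3. It was 3.93-fold higher in the thioacetamide group (exact two-sided permutation p = 0.1). miR-122, the main miRNA of hepatocytes, was the brightest miRNA on every thioacetamide array and supplied 23.2%, 34.1% and 40.9% of their summed signal. With miR-122 left out of the sum, the miR-451 share was 35.5% ± 8.17 (SD, n = 3) in the vehicle group and 9.87% ± 5.45 (SD, n = 3) in the thioacetamide group. These groups did not overlap either (exact two-sided permutation p = 0.1). The sum without miR-122 was 18411, 21031 and 13764 in vehicle 1 to 3 and 53608, 34304 and 52976 in thioacetamide 1 to 3. It thus rose as well, and the part of the other miRNAs that separated in this measure was not computed.

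**Figure D2:**
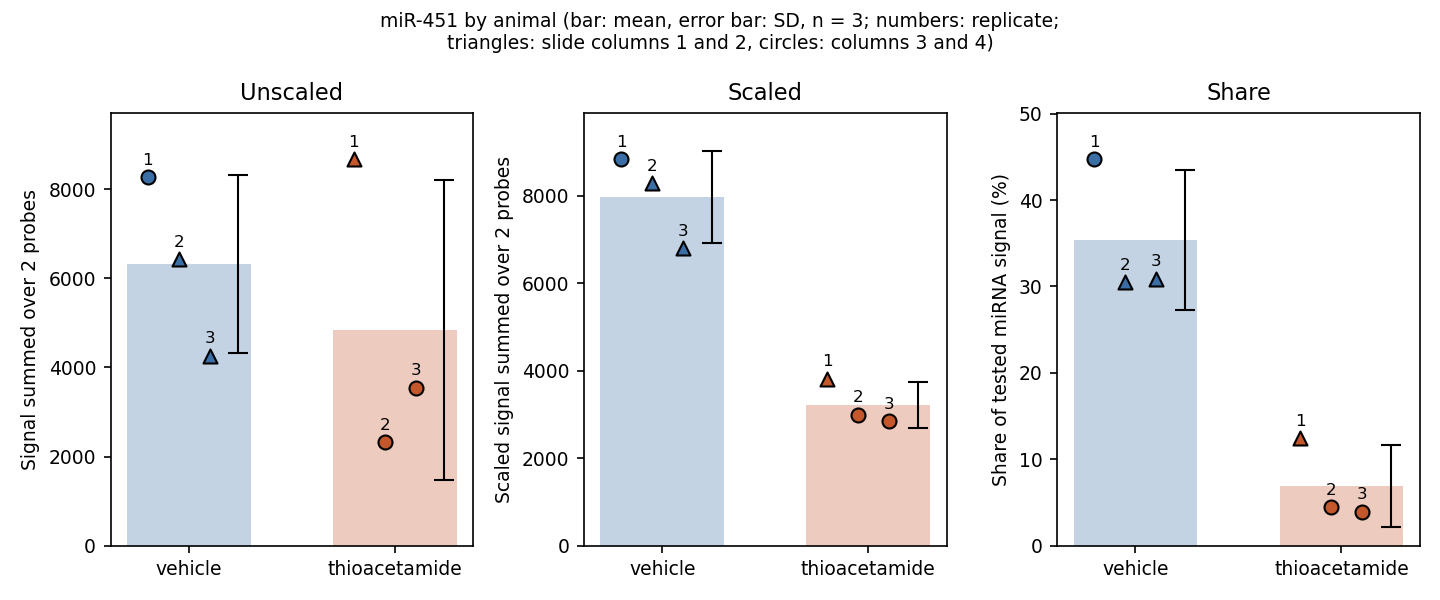
miR-451 on the 6 arrays as unscaled signal (intensity), scaled signal (intensity divided by the array's scale factor) and share of the summed signal of the 59 tested miRNAs (percent), each on a linear axis from 0. Points are numbered arrays, bars give the mean of 3 arrays and error bars the SD; the groups overlap in the unscaled signal and not in the scaled signal or the share.

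miR-144 lay at background on nearly every array, although it comes from the same transcript. Without marked spots it had 117, and 5 of these were well above background. All 5 belonged to the 19-base probe on vehicle 1, the array with the lowest additive error, where they were 5 of 10 spots. A probe was called detected when over 50% of its spots were well above background, so miR-144 was detected on 0 of 6 arrays. The scanner software's own call for the miRNA was positive on vehicle 1 alone. miR-144 was therefore not tested, and no direction of change is given for it.

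On vehicle 1 the 19-base probe of miR-144 had a mean of 19.0 ± 2.36 (SD over 10 spots) and the 18-base probe a mean of 3.38 ± 2.22 (SD over 10 spots). The 19-base probe averaged 4.65 on vehicle 2 and -22.7 on vehicle 3. It averaged -78.3, 2.79 and -2.19 on thioacetamide 1 to 3. Both probes were lowest on thioacetamide 1, which had the highest additive error. Summed over the pair, the signal was 22.4, -12.8 and -51.6 in vehicle 1 to 3 and -168, 0.759 and -7.95 in thioacetamide 1 to 3. Values below 0 are spots dimmer than the estimated background.

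**Figure D3:**
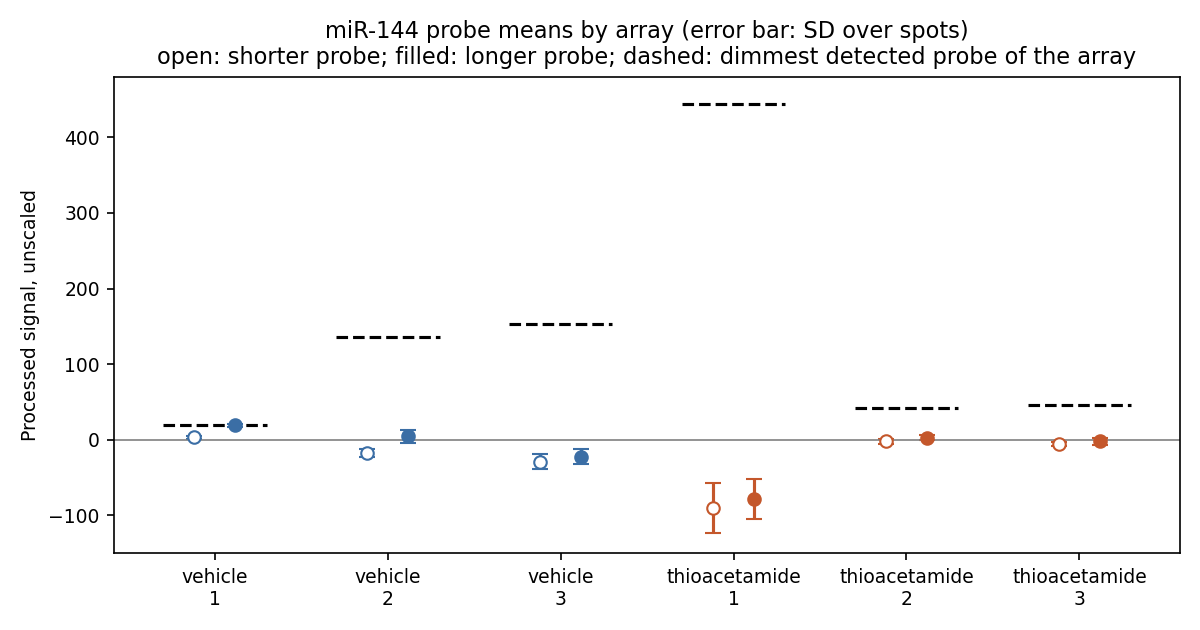
Mean intensity of the 18-base and 19-base miR-144 probes on each of the 6 arrays (linear axis; open points are the shorter probe, filled points the longer), with the SD over spots, beside the dimmest probe detected on that array. The dimmest detected probe lay between 19.6 and 445, and no miR-144 probe mean reached it; the 19-base probe on vehicle 1, at 19.0, came closest.

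The ratio of the 2 members of the transcript could be given only as a bound. On each array both miR-144 probes were raised to the intensity of the dimmest detected probe, and the miR-451 sum was divided by the sum of the pair. The dimmest detected probe was at 19.6, 136 and 153 on vehicle 1 to 3 and 445, 42.1 and 46.4 on thioacetamide 1 to 3. On vehicle 1 the miR-451 signal was at least 211-fold higher than that of miR-144. It was at least 23.6-fold and 13.9-fold higher on vehicle 2 and vehicle 3. It was at least 9.75-fold, 27.5-fold and 38.2-fold higher on thioacetamide 1 to 3. The bounds follow the noise of each array as well as miR-451, so they have no order and were not compared between groups. Probes of different sequence bind with different strength, and an intensity ratio between them is no ratio of molecules.

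The other arms of the hairpins, which the array names miR-451* and miR-144*, were at background too. Their RefSeq sequences are shown because each shares its hairpin with a member, with the seed in capitals.
rno-miR-451-3p: aUGGUAAUgguucucuugcugcu
rno-miR-144-5p: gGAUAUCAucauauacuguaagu
Of 119 unmarked spots of miR-451* and 114 of miR-144*, 0 were well above background. Of the miRNAs that share bases 2 to 7 with miR-144, miR-101a was detected on 0 arrays. miR-101b was detected on 0 vehicle arrays and on 2 thioacetamide arrays. Its signal was 4.18, -48.8 and -59.6 in the vehicle rats and 184, 129 and 150 in the thioacetamide rats. The groups did not overlap in this unscaled signal, where 45.8% of the 59 tested miRNAs were separated upwards. miR-101b is not one of the 59, and its values were not raised to the floor as theirs were. The 184 of thioacetamide 1 lay below the dimmest detected probe of that array, at 445. Detection on 2 arrays is under the minimum of 3 for a test.

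The members were then set beside other miRNAs known to be abundant in red cells. The list had 11 names, the 2 members included, and 10 of them are on the array. The 7 that could be tested are miR-451, miR-16, miR-15b, miR-25, miR-92a, miR-93 and miR-106b. miR-144, miR-144* and miR-363 were detected on no array, and miR-486 is not among the array's names. The RefSeq sequences of the tested list mates are shown because they fall into 3 seed groups, none of them the seed of miR-451.
rno-miR-16-5p: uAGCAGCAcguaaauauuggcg
rno-miR-15b-5p: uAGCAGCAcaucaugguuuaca
rno-miR-25-3p: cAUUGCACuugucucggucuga
rno-miR-92a-3p: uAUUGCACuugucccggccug
rno-miR-93-5p: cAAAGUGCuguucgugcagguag
rno-miR-106b-5p: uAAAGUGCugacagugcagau
miR-16 and miR-15b share the seed AGCAGCA and repress cell cycle genes such as cyclin D1. miR-25 and miR-92a share AUUGCAC, and miR-93 and miR-106b share AAAGUGC, the seed of the miR-17 family that represses the cell cycle inhibitor p21.

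Of the 7 tested list members, miR-451 was called lower after scaling, 0 were called higher and 6 did not pass the limma test at an adjusted p of 0.05. By unadjusted p under 0.05, limma put 5 of all 59 miRNAs lower and 16 higher. The median scaled log2 change of the list was -0.81, against 0.45 over all 59 tested miRNAs. Without scaling the list's median was -0.06, against 0.97 over all 59. The number called lower by limma was 0 without vehicle 1, vehicle 2 or thioacetamide 3, as it was over all tested miRNAs. It was 4 of the 6 miRNAs called lower in all without vehicle 3, and 4 of 7 without thioacetamide 1. When scaling left out the probes of the 2 members it was 5 of 8, and 3 of 4 when it left out those of the whole list. The list's median changed sign when the arrays were scaled to the labelling and hybridisation spike-ins (0.02). It also did so without scaling and with the slide side as a block (0.0074).

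miR-16 was the brightest list member after miR-451 on every vehicle array. Its unscaled signal was 2892, 2196 and 1454 in vehicle 1 to 3 and 2865, 945 and 1574 in thioacetamide 1 to 3. The unscaled groups overlapped, as for miR-451. Its scaled log2 change was -1.13 ± 0.33 (SE), with an adjusted p of 0.0585 by limma. With the slide side as a block the adjusted p of miR-16 was 0.0478 by limma. When scaling left out the list's probes, miR-16 among them, its change was -1.35 (adjusted p = 0.0409 by limma).

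miR-106b had a scaled log2 change of -1.35 (adjusted p = 0.0686) and miR-15b one of -0.81 (adjusted p = 0.137). miR-106b and miR-93 were each detected on 2 vehicle and 2 thioacetamide arrays. For miR-93 the change was -0.49 (adjusted p = 0.398) and for miR-25 it was -0.23 (adjusted p = 0.691). miR-92a stood apart in sign, with a scaled change of 0.85 (adjusted p = 0.220). Its unscaled signal was 486, 620 and 364 in the vehicle rats and 1548, 1168 and 1716 in the thioacetamide rats. These did not overlap, and unscaled miR-92a rose by 1.61 on the log2 scale (adjusted p = 0.0262 by limma), where 37.3% of the 59 miRNAs were called higher and 0 were called lower. At an unadjusted p under 0.05 the unscaled limma fit also put 0 of the 59 lower, and 24 higher.

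After scaling, the thioacetamide arrays all lay below the vehicle arrays for 4 of the 7 tested list members. These were miR-451, miR-16, miR-106b and miR-15b. The same held for 6 of the 59 tested miRNAs (10.2%), and the other 2 were miR-20b-5p and miR-27a. In unscaled signal 0 of the 7 were separated downwards, as were 0 of all 59, and miR-92a was separated upwards, as were 45.8% of the 59. As a share of the summed signal all 7 were separated downwards, where 32.2% of all 59 were.

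**Figure D4:**
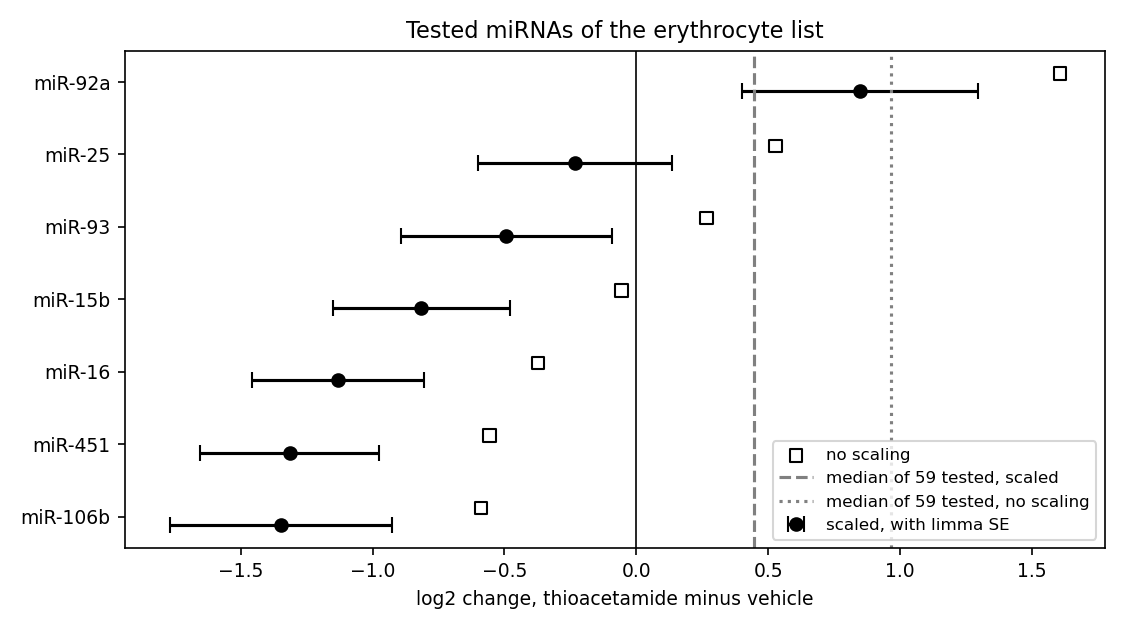
Log2 change (thioacetamide minus vehicle) of the 7 tested erythrocyte-list miRNAs, scaled (with the standard error of the limma fit) and unscaled, with a dashed (scaled) and a dotted (unscaled) line at the median over all 59 tested miRNAs. miR-451, miR-106b and miR-16 have the lowest scaled changes (-1.31, -1.35 and -1.13) and miR-92a the highest (0.85), and each unscaled point lies to the right of its scaled one.

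The whole list made up 48.9% to 69.4% of the summed signal on the vehicle arrays and 8.85% to 20.8% on the thioacetamide arrays. Its unscaled sum was 12832, 10369 and 6732 in vehicle 1 to 3 and 14520, 5112 and 7937 in thioacetamide 1 to 3. The sums overlapped between the groups, at 9978 ± 3069 (SD, n = 3) and 9190 ± 4827 (SD, n = 3; exact two-sided permutation p = 0.9). Of miRNAs known from white cells, 3 of 6 could be tested and none passed the limma test, which 16.9% of all 59 passed in either direction. They made up 1.80% to 3.22% of the vehicle signal and 0.580% to 1.34% of the thioacetamide signal. Of miRNAs known from platelets and endothelium, 3 of 5 could be tested and none passed the limma test, with shares of 0.715% to 1.62% and 0.954% to 1.55%. Of miRNAs known from liver, 5 of 6 could be tested and 4 were called higher, where 15.3% of all 59 were, with shares of 2.02% to 2.46% and 43.1% to 58.6%. The part of each list in the lower share of miR-451 was not tested.

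Ratios within an array need no scaling and show where miR-451 and another miRNA moved apart. miR-451 made up 64.4%, 62.0% and 63.2% of the erythrocyte list's own signal in vehicle 1 to 3. In thioacetamide 1 to 3 it made up 59.7%, 45.3% and 44.7%. This measure was added after the values were seen. The mean was 63.2% ± 1.21 (SD, n = 3) against 49.9% ± 8.49 (SD, n = 3; exact two-sided permutation p = 0.1). The difference was -2.94 percentage points within columns 1 and 2 and -19.4 points within columns 3 and 4. The miR-451 part of the list's signal was thus nearly the same on all 3 vehicle arrays, whose miR-451 signals differed from 4257 to 8265. The list's signal includes miR-451 itself, and a difference in brightness between whole arrays cancels in this measure.

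The log2 ratio of miR-451 to miR-16 was 1.52, 1.55 and 1.55 in vehicle 1 to 3. It was 1.60, 1.29 and 1.17 in thioacetamide 1 to 3. The groups overlapped and differed by -0.18 (exact two-sided permutation p = 0.4). The log2 ratio of miR-451 to miR-92a was 4.09, 3.37 and 3.55 in the vehicle rats and 2.48, 0.99 and 1.05 in the thioacetamide rats. These did not overlap, and the difference was -2.16, which is 4.48-fold (exact two-sided permutation p = 0.1, and 0.267 after Benjamini-Hochberg adjustment over 8 ratios). Columns 1 and 2 gave -0.98 and columns 3 and 4 gave -3.07. The ratio to miR-25 was separated in the same direction, with a difference of -1.08 (exact two-sided permutation p = 0.1, adjusted 0.267).

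miR-23a is little present in red cells, and the ratio of miR-451 to it is used as an index of haemolysis. Its log2 value was 5.90, 6.19 and 5.53 in vehicle 1 to 3 and 5.70, 3.82 and 3.53 in thioacetamide 1 to 3. The groups overlapped through thioacetamide 1, and the difference was -1.52 (exact two-sided permutation p = 0.2, adjusted 0.320). miR-23a was detected on 1 vehicle array and 2 thioacetamide arrays, so the other 3 values rest on a dim signal. The value of thioacetamide 1 is among these 3. The miR-23a signal there lay below that array's dimmest detected probe, at 445. The intensities of miR-451 and miR-23a come from different probes, so the level of this index on the array is not that of a PCR measurement.

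Besides miR-451, 7 miRNAs were detected on all 6 arrays, so that no ratio to them rests on a signal at background or on the floor. The mean log2 ratio of miR-451 to its partner was lower under thioacetamide for all 7. That restates that miR-451 had the lowest scaled change among the miRNAs detected on all 6 arrays. The groups did not overlap for 4 of them (57.1%), which were miR-25, miR-92a, miR-19b and miR-1224. They overlapped for miR-16, let-7d* and miR-328a. These ratios share the miR-451 signal and are not independent of each other. The part that separated was not computed with another miRNA in place of miR-451.

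**Figure D5:**
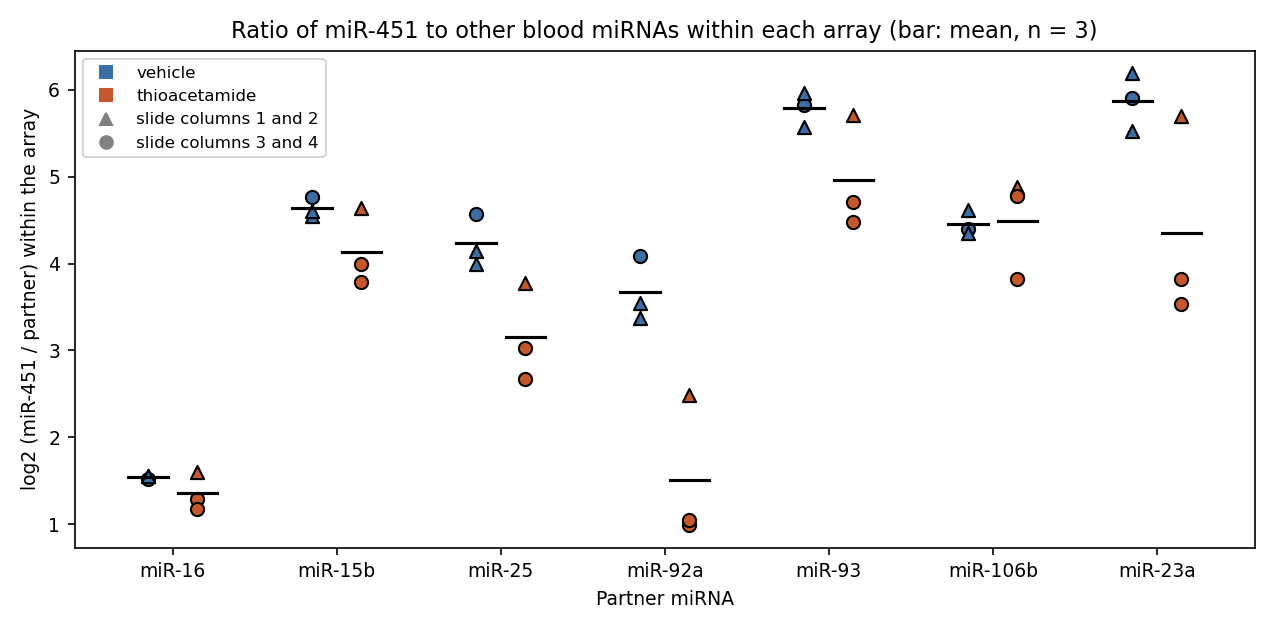
Log2 ratio of the miR-451 signal to that of other miRNAs on each of the 6 arrays, coloured by treatment and shaped by slide side, with bars at the mean of 3 arrays. For miR-16 and miR-106b the groups overlap and differ little (-0.18 and 0.03), and for miR-92a all 3 thioacetamide arrays lie below the vehicle arrays. For miR-23a thioacetamide 1 lies among the vehicle arrays, at a dim miR-23a signal.

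The miRNAs whose scaled log2 profile over the 6 arrays was most like that of miR-451 were found by the root mean square difference of centred profiles. miR-16 was nearest at 0.157, where the median over the 58 others was 1.44. miR-106b (0.348), miR-15b (0.364), miR-20b-5p (0.389) and miR-27a (0.389) followed. The first 3 are on the erythrocyte list, while miR-20b-5p shares the seed of miR-93 and miR-106b. miR-20b-5p had a scaled change of -0.60 (adjusted p = 0.220 by limma) and miR-27a one of -0.88 (adjusted p = 0.129 by limma). Each was detected on 1 vehicle array and 2 thioacetamide arrays, so their profiles rest in part on dim signals.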

How the data were processed

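The authors deposited linear spot intensity values with the background taken off, neither log transformed nor scaled. Per the submitters' processing notes the software was Agilent Feature Extraction 10.7.3.1. The deposited matrix equals the processed signal within 0.005. Arrays were grouped by sample title. Control spots and 2126 outlier-marked spots were left out. A probe was detected when over 50% of its spots were well above background (a multiple of 13 per the file headers). Spots were averaged, probes summed, and sums scaled by the 75th percentile of 12 probes, raised to a floor of 46.1 (5th percentile of detected sums) and put on the log2 scale. miRNAs on at least 3 arrays (59) were fitted with limma 3.58.1 in R 4.3.3 (treatment as the only term, Benjamini-Hochberg, threshold 0.05). The fit was checked on simulated data with equal noise on every array and changes larger than that of miR-451. A change of its size, or unequal noise, was not simulated. Exact two-sided permutation tests served for single values (scipy 1.17.1). Alternatives changed scaling, background, floor, filter, summary, blocks and arrays.

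The members and the lists (erythrocyte, leukocyte, platelet and endothelium, liver) were chosen with earlier results of these data known. Named were the members, their other arms, every tested erythrocyte-list miRNA, the ratio partners, the 5 miRNAs most like miR-451 and those sharing bases 2 to 7 with a member. The share of the erythrocyte list and the miRNAs detected on all arrays as further ratio partners were chosen after their values were seen. RefSeq mature sequences matched 10 of the 10 list names on the array; its assembly is GRCr8, while the array's probe positions, not used here, are in rn4.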

Additional observations from a re-analysis of the deposited data

How the results depend on the processing

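The scaled change of miR-451 (-1.31) was negative under all 28 alternatives, from -2.70 (quantile normalization) to -0.40, and 14 kept the call. The slide sides alone, each with 1 array in 1 group, are among the 28, and columns 3 and 4 are among the 14. In the other settings the adjusted p ran from 0.0055 to 0.673 by limma. The call was lost with the percentile over all probes (-1.05), without scaling (-0.56), without scaling and with the slide side as a block (-0.40, added after seeing the data), with spike-in scaling (-0.48), in columns 1 and 2 alone (-0.98), and at -1.31 with a floor 0.25 times as high, no filter, the software's detection call and its total gene signal. Leaving out 1 array gave -2.20 to -1.23. Whether the replicate numbers pair the animals could not be told. Same-number arrays always lay on opposite slide sides, with correlations of -0.70, -0.31 and -0.66. Arrays of unlike number had correlations of 0.23 to 0.74 on the same side and of -0.14 and -0.71 on opposite sides. The correlations thus followed the slide side and cannot decide on pairing. The replicate block gave -1.31 (adjusted p = 0.106 by limma) and called 10 miRNAs, 0 of them lower (3 lower at an unadjusted p under 0.05). The miRNAs called, 10 in the report, were 19 when scaling left out the probes of the members, 16 when it left out those of the erythrocyte list, 3 by the percentile over all probes, 22 without scaling, 28 when the side was a block as well, 21 by spike-in, 16 by the median of the miRNAs that every array detected, 6 with normexp, 19 at detection on at least 1 array, 2 on all 6, 2 with no filter, 17 by the brightest probe, 0 in columns 1 and 2 alone (16 at an unadjusted p under 0.05), 37 in columns 3 and 4 alone, and 6 to 25 leaving out 1 array. The cause was not tested. Unscaled miR-451 (-0.56) turned to 0.73 in columns 1 and 2 and ranged from -1.09 to -0.14 leaving out 1 array. The share was lower under all 15 alternatives run, by -40.5 to -17.4 points, and by -34.0 to -25.9 leaving out 1 array.

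Alternatives for the other named miRNAs and for the ratios were added after seeing the data. Among changes that passed no test after scaling, signs turned as follows. Without scaling: miR-25 0.53, miR-93 0.27, miR-20b-5p 0.15. Without scaling and with the side as a block: miR-15b 0.0074, miR-25 0.61, miR-93 0.24, miR-20b-5p 0.33, miR-27a 0.090. With spike-in scaling: miR-15b 0.018, miR-25 0.60, miR-93 0.34, miR-20b-5p 0.23. miR-25 was 0.030 with the percentile over all probes and 0.13 in columns 3 and 4; miR-92a was -0.36 by quantile normalization and -0.00067 in columns 1 and 2. In columns 1 and 2 the miR-451 ratio to miR-16 was 0.047 and to miR-15b 0.061. The ratio to miR-106b was -0.26 with normexp, -0.022 by the brightest probe, -0.10 in columns 3 and 4, and -0.16 to 0.37 leaving out 1 array. The median change of all 59 miRNAs, 0.45 in the report, moved by 0.52 without scaling, 0.59 by spike-in, -0.39 by quantile normalization and -0.52 when scaling left out the members' probes. miR-144 was tested under no alternative but that with no filter, where it sat at the floor on every array and its change was 0 by construction. With the software's detection call it was detected on 1 array, under the minimum of 3. The ratio of the 2 members, a bound in the report, was not recomputed under the alternatives.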
